A study of Mus musculus with 24 samples.

Results

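H3K27me3, trimethylation of lysine 27 of histone H3, was compared between forelimb and hindlimb buds of mouse embryos at embryonic day 10.5 (E10.5). The comparison rested on 4 of the 24 samples of the series, namely forelimb replicates 1 and 2 and hindlimb replicates 1 and 2, each with its own deposited list of peaks. Peaks of a list lying within 3 kb of each other were stitched into a domain, and the 4 stitched lists were merged into 8764 union domains, of which 2846 averaged at least 1 kb of peaks per library and were tested. Every group was C57BL/6J tissue, with no mutation or treatment named in the labels. The H3K27me3 libraries of both limbs were made from formaldehyde-crosslinked chromatin with the same antibody. Peak lists of H3K27ac, acetylation of the same lysine, were used beside them, 2 per limb at E10.5 and 1 per limb at E11.5. A limb bud is a mixture of mesenchyme under a layer of ectoderm. In such bulk tissue, a mark present in fewer cells and a mark that is weaker in each cell cannot be told apart.

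H3K27me3 is written by Polycomb repressive complex 2 and marks silent developmental genes, often over long domains that take in whole gene clusters. Acetylation occupies the same lysine at active promoters and enhancers, so both marks cannot sit on the same histone tail. The limb bud field uses a small set of regulators to tell the limbs apart. Tbx5 is the T-box factor that starts the forelimb, Pitx1 and Tbx4 are hindlimb factors, Isl1 is needed to start the hindlimb, and Hox genes carry position along the body axis.

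Domains that differed between the limbs included the loci of the known limb regulators. Covered bases, meaning bases lying under a peak, were called higher in forelimb in 5 domains, and these lay at HoxC, HoxB, Pitx1, Isl1 and Tbx4. Among hindlimb-higher domains the lowest adjusted p belonged to a pair at Tbx5, where neither forelimb list held a peak, while the largest difference in covered kb lay in an unnamed domain on chromosome 8. All 5 forelimb-higher domains held more E10.5 H3K27ac in both hindlimb libraries than in either forelimb library, and both Tbx5 domains held H3K27ac only in the forelimb libraries. Beyond these loci, the hindlimb lists covered more bases in most domains, and most of the other differences called in the deposited lists were no longer called once the libraries were scaled to equal totals.

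Promoter sequences of 4 genes at called domains are shown because CG dinucleotides are a known feature of promoters bound by Polycomb. They are the 250 bases before the gene's start on its own strand, taken from RefSeq on GRCm38.p6, with each CG in capitals. Promoters of 7 genes were looked for, and those of Pitx1, Tbx5 and Tbx15 were not among the sequences available.
Isl1: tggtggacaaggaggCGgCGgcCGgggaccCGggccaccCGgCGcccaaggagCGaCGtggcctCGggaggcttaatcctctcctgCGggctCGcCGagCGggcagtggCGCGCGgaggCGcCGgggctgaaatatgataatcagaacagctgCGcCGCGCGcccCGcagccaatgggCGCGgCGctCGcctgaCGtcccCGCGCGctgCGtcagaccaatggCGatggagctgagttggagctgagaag
Tbx4: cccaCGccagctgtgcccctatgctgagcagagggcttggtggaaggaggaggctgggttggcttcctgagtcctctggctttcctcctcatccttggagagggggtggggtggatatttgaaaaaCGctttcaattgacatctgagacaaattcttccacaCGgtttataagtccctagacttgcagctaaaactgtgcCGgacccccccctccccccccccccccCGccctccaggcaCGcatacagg
Tbx18: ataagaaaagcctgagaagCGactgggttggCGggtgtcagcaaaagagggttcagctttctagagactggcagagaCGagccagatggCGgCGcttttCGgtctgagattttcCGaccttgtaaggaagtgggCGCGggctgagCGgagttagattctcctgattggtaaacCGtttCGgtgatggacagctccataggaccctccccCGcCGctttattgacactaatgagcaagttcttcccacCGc
Lmx1b: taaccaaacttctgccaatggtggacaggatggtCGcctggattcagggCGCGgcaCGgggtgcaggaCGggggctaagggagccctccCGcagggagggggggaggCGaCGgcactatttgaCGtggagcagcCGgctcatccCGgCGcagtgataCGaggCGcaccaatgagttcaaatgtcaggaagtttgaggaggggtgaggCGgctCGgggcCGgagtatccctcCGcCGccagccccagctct

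The Isl1 promoter held 33 CG, a number reached by 4.03% of the 32851 promoters of the same length. Lmx1b held 19, reached by 19.7%, and Tbx18 held 15, reached by 27.3%. Tbx4 held 6, which equals the median of all promoters, and it was the one of the 4 with the letters TATAAA on either strand, found in 12.4% of all promoters. The 4 promoters thus spanned from the middle to the upper end of CG content, and no value below rests on them.

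The libraries differed in how much they covered. Forelimb replicates 1 and 2 held 12384 and 10477 peaks covering 9.93 and 7.56 Mb, and hindlimb replicates 1 and 2 held 12901 and 12678 peaks covering 13.5 and 12.02 Mb. Hindlimb covered 1.46 times as much as forelimb (12.8 ± 1.05 against 8.75 ± 1.68 Mb, SD, n = 2 each), with no overlap between limbs and an exact two-sided permutation p of 0.333, the smallest that 2 against 2 libraries allow. Sequencing depth is not in the lists and is unknown, and the median peak score, -10 times the base-10 logarithm of the authors' p-value, was 89.99 and 92.2 in forelimb and 105.5 and 102.6 in hindlimb. Nothing in the labels ties the replicates to different litters or dissections, so p-values measure only the spread between these libraries, which may be technical. Each domain was therefore also read after multiplying coverage so that every library had the same total, called scaled below.

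As a check of the tissue, windows set around known genes were read in all 4 libraries. The 10 windows of neural regulators were marked in every library, and those of the housekeeping genes Actb and Gapdh in none. The mesenchymal regulators Prrx1 and Twist1 held at most 0.75 kb in any library. Msx1, also chosen as a marker of limb mesenchyme, went the other way and was marked in every library. It held 4.15 and 0.876 kb in forelimb and 3.07 and 3.31 kb in hindlimb. For Prrx1 and Twist1, spacing to a neighbouring window differed by 32.6 and 416.4 kb from GRCm38.p6, so these windows may miss their genes. Both marks at Tbx5, Pitx1, Tbx4 and Isl1 followed the limb given by the labels, but these are values reported as results below and not a separate check. Gene names here come from these windows, placed by hand on mm9, and a domain takes a name when it lies within 30 kb of a window, so a name is approximate.

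HoxC was the largest difference in covered kb. In the domain chr15:102737327-102826835 (mm9, as are all coordinates here), H3K27me3 covered 64.4 and 62.2 kb in forelimb replicates 1 and 2 and 35.0 and 32.1 kb in hindlimb replicates 1 and 2. Both forelimb libraries stood far above both hindlimb libraries, 1.89-fold higher on average (63.3 ± 1.55 against 33.6 ± 2.01 kb, SD, n = 2 each). The difference passed the test (log2 difference 0.91, SE 0.06, limma adjusted p = 0.00195). It was not spread over the cluster. In the first 40 kb of the domain all 4 libraries were covered at 5.80 to 8.83 kb in each 10 kb slice. From 40 to 50 kb forelimb held 8.56 and 7.70 kb and hindlimb 3.47 and 1.65 kb. From 60 kb to the end neither hindlimb library held a peak, while forelimb held 8.41 and 8.60 kb in the slice from 60 to 70 kb and 4.84 and 4.03 kb in the last one. The outer edge of the mark on that side lay 41.0 kb further out in forelimb, the largest shift of any domain edge. Genes of the cluster run from Hoxc13 to Hoxc4 along rising coordinates in the GRCm38.p6 gene order, so the slices without the mark in hindlimb lie on the Hoxc4 side. H3K27ac lay in those slices in hindlimb, with 5.04 and 6.67 kb from 60 to 70 kb, where both forelimb libraries were at 0. Over the whole domain, H3K27ac covered 18.8 and 25.1 kb in hindlimb and 0.777 and 0.299 kb in forelimb at E10.5, and 34.8 kb in hindlimb and 0 in forelimb at E11.5. The HoxC call was lost with the higher-scoring 50% of each list (limma adjusted p = 0.116), with limma without a trend (0.0759) and without hindlimb replicate 2 (0.182), and it kept its direction in each.

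**Figure D1:**
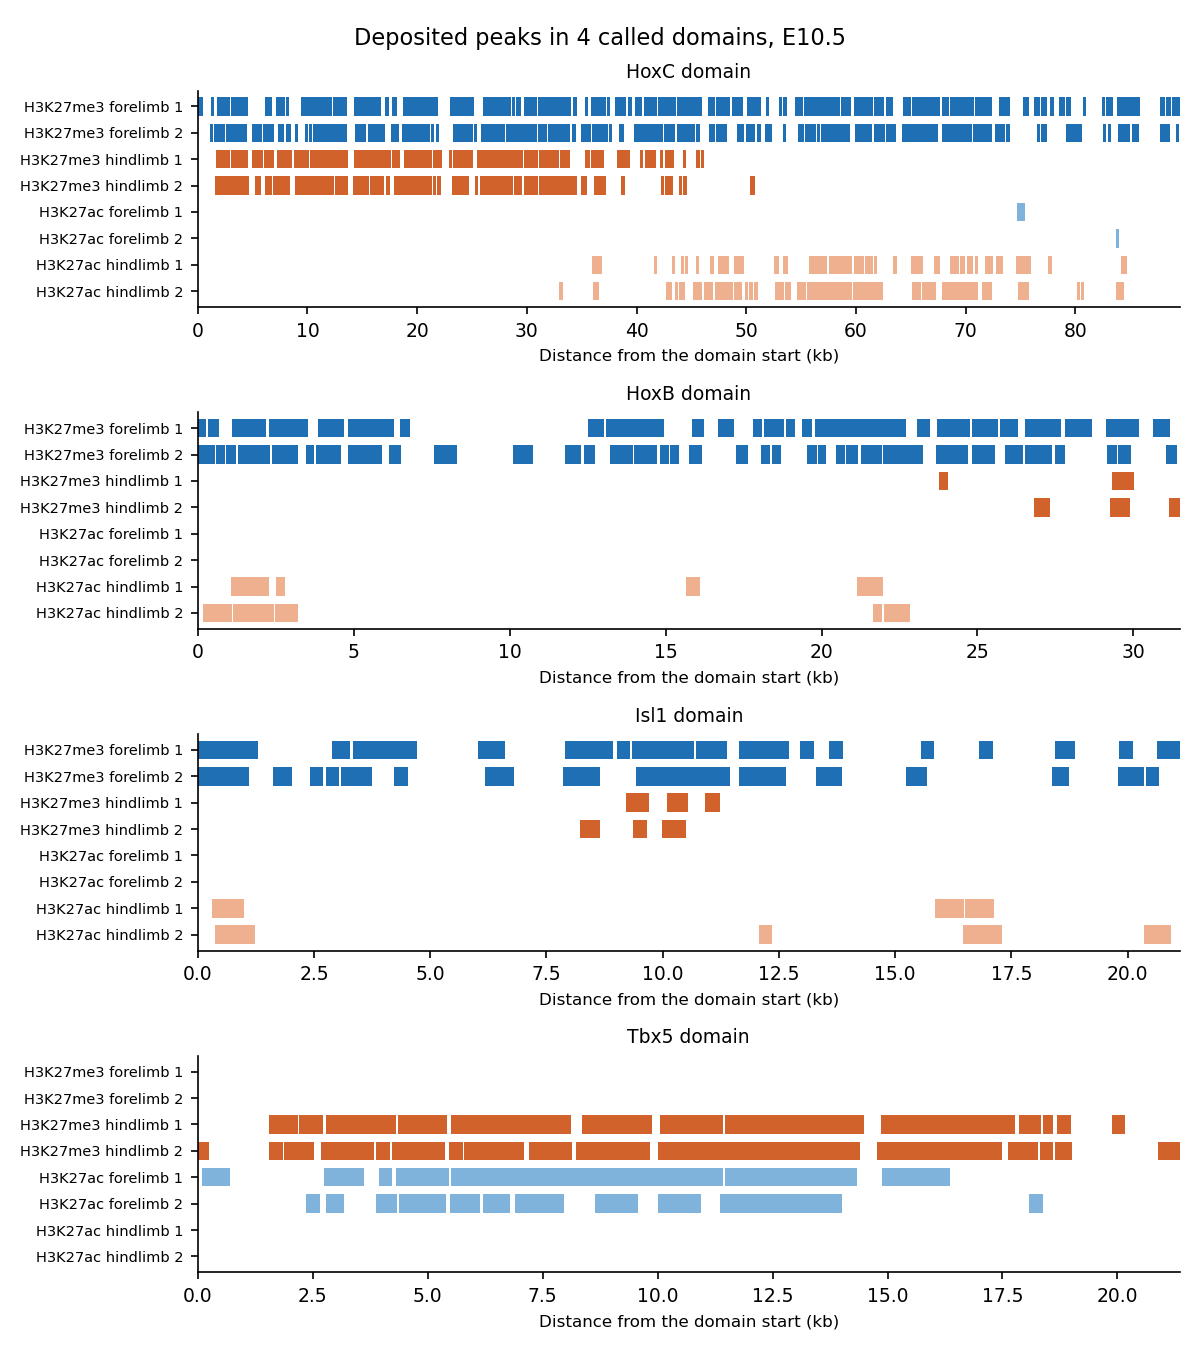
Peaks of H3K27me3 and H3K27ac by library in 4 domains called different between the limbs, at HoxC, HoxB, Isl1 and Tbx5. The horizontal axis is the distance in kb from the start of the union domain, each row is 1 library, and each block is 1 deposited peak. At HoxC the hindlimb H3K27me3 blocks stop partway along the domain and hindlimb H3K27ac blocks take up the rest, and at Tbx5 H3K27me3 lies in hindlimb and H3K27ac in forelimb.

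HoxB differed over a shorter stretch and almost from nothing. The domain chr11:96111472-96142957 held 19.8 and 19.0 kb in forelimb and 1.02 and 1.495 kb in hindlimb. Forelimb was 15.4-fold higher on average, the largest fold among the forelimb-higher calls (log2 difference 3.51, SE 0.17, limma adjusted p = 0.000441). The first 20 kb held no H3K27me3 peak in either hindlimb library, and the start-side edge lay 25.3 kb further out in forelimb. H3K27ac covered 2.78 and 4.14 kb there in hindlimb and 0 in both forelimb libraries. HoxB genes run from Hoxb13 to Hoxb1 along rising coordinates. The other long domain of the cluster, chr11:96025916-96069127, on its Hoxb13 side, went the other way in the deposited lists without passing the test, at 28.9 and 29.6 kb in forelimb and 35.6 and 34.5 kb in hindlimb (limma adjusted p = 0.071), and the sign of its log2 difference turned with scaling, from -0.26 to 0.29. Another domain at chr11:96255555-96269323, beyond the Hoxb1 end of the cluster window, was listed at 0 in both forelimb libraries and held 4.19 and 3.77 kb in hindlimb (limma adjusted p = 0.0162). It had no E10.5 H3K27ac in any library. Within and beside HoxB, calls in both directions thus lay on the same chromosome stretch.

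HoxA and HoxD had no domain called in the deposited lists. The HoxA domain chr6:52191270-52204613 held 5.74 and 3.90 kb in forelimb and 2.49 and 1.76 kb in hindlimb (log2 difference 1.01, limma adjusted p = 0.069), and it was called higher in forelimb only with scaling (log2 difference 1.49). Its neighbour at chr6:52208127-52227068 held 14.1 and 12.8 kb against 12.3 and 10.8 kb and was not called in either form. In HoxD, the domain chr2:74483920-74522289 held 20.6 and 16.7 kb in forelimb and 21.8 and 21.6 kb in hindlimb (log2 difference -0.22, limma adjusted p = 0.20). The 4 Hox clusters therefore ranged from a domain nearly free of the mark in hindlimb, at HoxB, to one that was not called, at HoxD, where the libraries did not overlap but the log2 difference turned to 0.32 with scaling.

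The 3 hindlimb regulators all carried more H3K27me3 in forelimb. Pitx1, a homeobox factor expressed in the hindlimb and not the forelimb, lay in chr13:55925253-55941172 with 13.5 and 11.9 kb in forelimb and 3.04 and 2.81 kb in hindlimb, 4.34-fold higher in forelimb (log2 difference 1.94, SE 0.13, limma adjusted p = 0.00195). Its H3K27ac covered 11.4 and 12.5 kb in hindlimb and 0 in both forelimb libraries. Isl1, a LIM-homeodomain factor, lay in chr13:117083390-117104512 with 10.4 and 9.72 kb in forelimb and 1.24 and 1.23 kb in hindlimb, 8.17-fold higher (log2 difference 2.61, SE 0.15, limma adjusted p = 0.000937). The Isl1 domain was wider in forelimb on both sides, by 8.72 kb at its start and 10.0 kb at its end. H3K27ac at Isl1 was small, 1.96 and 2.58 kb in hindlimb and 0 in forelimb at E10.5, and 0.35 kb in hindlimb at E11.5. Tbx4 lay in chr11:85699078-85708807 with 7.23 and 7.54 kb in forelimb and 2.04 and 1.86 kb in hindlimb, 3.79-fold higher (log2 difference 1.69, SE 0.15, limma adjusted p = 0.00773). It held 4.99 and 6.12 kb of H3K27ac in hindlimb and 1.08 and 0 kb in forelimb. Unlike Tbx5 in forelimb, none of the 3 was free of H3K27me3 in the limb that is known to express it. The Tbx4 call was lost with the higher-scoring 50% of each list (limma adjusted p = 0.127), without hindlimb replicate 1 (0.0536) and without hindlimb replicate 2 (0.144).

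Tbx5 was the mirror image. The domain chr5:120276495-120297849 held 16.4 and 16.9 kb in hindlimb and no peak in either forelimb library, and its neighbour chr5:120243817-120260618 held 15.8 and 15.2 kb in hindlimb and again no forelimb peak. Both passed the test with the lowest adjusted p of all domains (limma adjusted p = 8.1e-05 for each). No fold is given for them, because a domain listed at 0 has no measured level to divide by. Another domain, chr5:120315302-120318083, held 2.07 and 1.75 kb in hindlimb and none in forelimb, and it was too small to be tested. In forelimb the 2 long domains held H3K27ac instead, 13.2 and 9.28 kb in the first and 9.59 and 7.80 kb in the second, against 0 in both hindlimb libraries, and at E11.5 they held 17.7 and 12.1 kb in forelimb and 0 in hindlimb. Tbx3, a T-box neighbour of Tbx5 that is expressed in both limbs, was less split. Its window held 4.63 and 2.52 kb in forelimb and 8.28 and 5.87 kb in hindlimb, and no domain of it was called, although the mark reached 5.00 kb further out at one end in hindlimb.

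**Figure D2:**
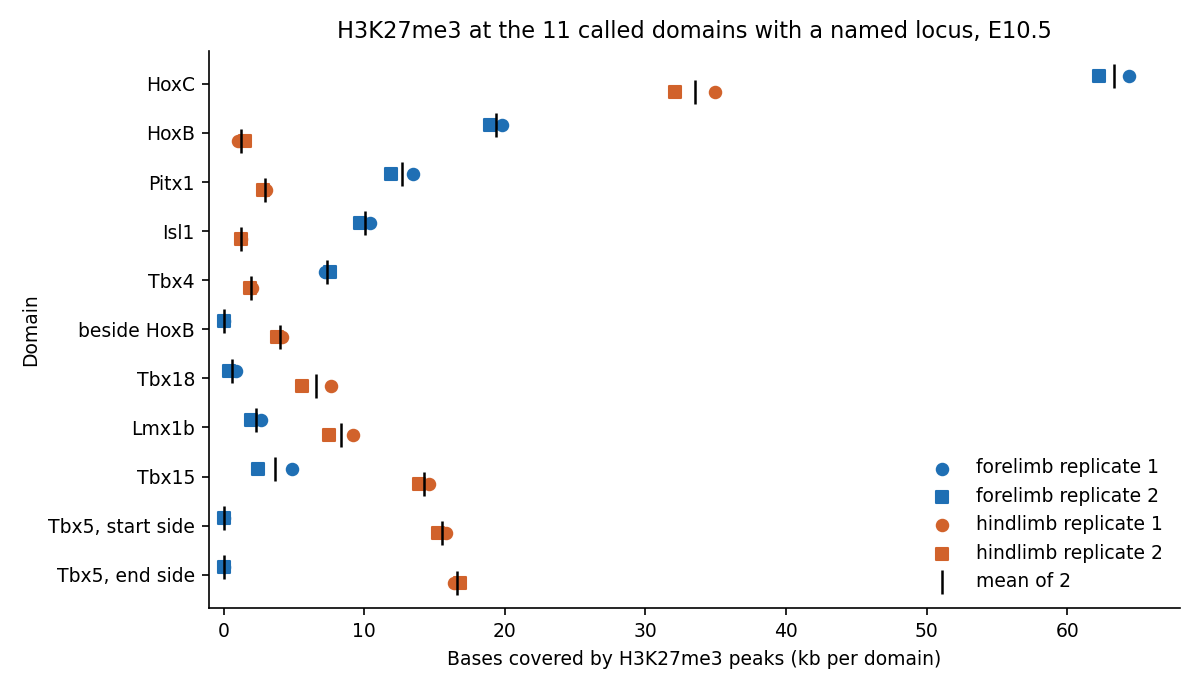
Covered H3K27me3 per library in the 11 named domains called different between the limbs. Each row is 1 domain, the horizontal axis is kb under peaks, each point is 1 library coloured by limb, and black strokes are means of 2. Both forelimb points lie to the right of both hindlimb points at HoxC, HoxB, Pitx1, Isl1 and Tbx4, and both lie at 0 in the Tbx5 domains.

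Tbx18, Tbx15 and Lmx1b formed a further set of named loci, all higher in hindlimb. Tbx18 and Tbx15 are related T-box factors of mesoderm, and Lmx1b gives limb mesenchyme its dorsal identity. Tbx18, in chr9:87621939-87635568, held 0.857 and 0.411 kb in forelimb and 7.63 and 5.56 kb in hindlimb, 10.4-fold higher in hindlimb (log2 difference -2.66, SE 0.27, limma adjusted p = 0.0121). The mark began 11.6 kb further out on its start side in hindlimb. Tbx15, in chr3:99038126-99066285, held 4.90 and 2.48 kb in forelimb and 14.6 and 13.9 kb in hindlimb, 3.86-fold higher (log2 difference -1.88, SE 0.27, limma adjusted p = 0.0303). Lmx1b, in chr2:33487303-33501490, held 2.63 and 1.93 kb in forelimb and 9.18 and 7.50 kb in hindlimb, 3.66-fold higher (log2 difference -1.67, SE 0.19, limma adjusted p = 0.0162). The limbs did not overlap at any of the 3, and all 3 were also called with scaling. Acetylation did not follow the pattern of Tbx5 here. Tbx18 held 2.15 and 1.77 kb of H3K27ac in forelimb and 1.82 and 2.01 kb in hindlimb, so the limbs overlapped. They overlapped at Lmx1b too, with 11.4 and 6.28 kb in forelimb and 7.22 and 6.40 kb in hindlimb. At Tbx15 forelimb was higher, at 9.39 and 5.39 kb against 5.06 and 4.26 kb. Lists of both limbs thus held both marks in these 3 domains. Each of the 3 calls was lost in 5 of 16 alternative settings, among them leaving out either hindlimb replicate, where the limma adjusted p was 0.244 and 0.179 for Tbx18, 0.324 and 0.319 for Tbx15, and 0.244 and 0.179 for Lmx1b.

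Over all 2846 tested domains, 5 were called higher in forelimb (0.176%) and 60 higher in hindlimb (2.11%) by limma at an adjusted p under 0.05, or 65 in all (2.28%). The median log2 difference of all tested domains was -0.40, toward hindlimb, and 94.7% of the differences were negative. With scaling the median moved to 0.05, and 9 domains were called higher in forelimb (0.316%) and 19 higher in hindlimb (0.668%), or 28 in all (0.984%). All 5 forelimb calls were among the 9, and 18 of the 60 hindlimb calls were among the 19. The number of hindlimb calls hung on single libraries. It was 2 without hindlimb replicate 1 and 2 without hindlimb replicate 2, both times the Tbx5 domains, and it was 109 without forelimb replicate 2 and 1262 without forelimb replicate 1. The number of forelimb calls ran from 3 without hindlimb replicate 2 to 7 without forelimb replicate 1. HoxB, Isl1, Pitx1 and both Tbx5 domains were called in each of 16 alternative settings.

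**Figure D3:**
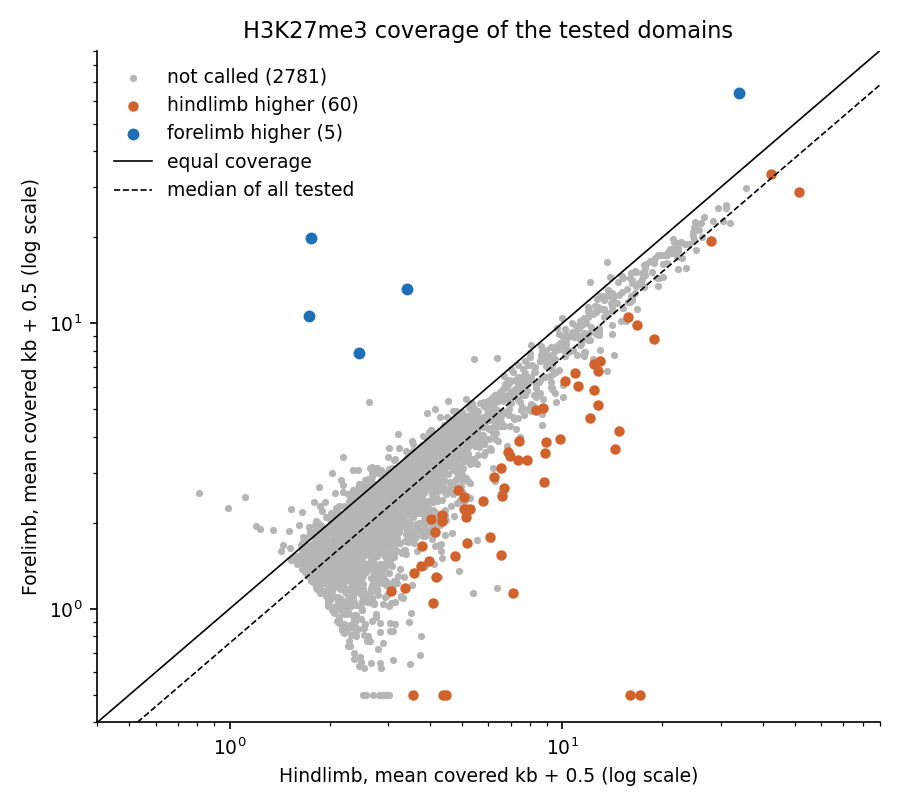
Covered kb in forelimb against hindlimb for the 2846 tested domains, each axis a mean of 2 libraries with 0.5 kb added, on log axes. Each point is 1 domain, called domains are coloured by direction, the solid line marks equal coverage and the dashed line the median log2 difference of -0.40. Most points lie on the hindlimb side of the solid line, and the 5 forelimb-higher domains lie well off the bulk on the other side.

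The 54 called domains that took no name were all higher in hindlimb, and 12 of them were also called with scaling. In the 52 of these with peaks in both limbs, hindlimb was 1.28- to 6.55-fold higher, with a median of 2.51-fold. The largest difference in covered kb of all hindlimb-higher domains, and the second after HoxC in either direction, lay among them. This domain, chr8:87256340-87329581, held 32.3 and 24.2 kb in forelimb and 53.0 and 48.7 kb in hindlimb (limma adjusted p = 0.039), and it was not called with scaling (limma adjusted p = 0.305). In contrast, chr11:77744256-77769048 held 3.87 and 2.40 kb in forelimb and 15.8 and 11.99 kb in hindlimb and was called both as deposited (limma adjusted p = 0.016) and scaled (limma adjusted p = 0.0020). Its end-side edge lay 19.3 kb further out in hindlimb, the largest shift in that direction. A domain at chr13:78301361-78330383 was likewise called in both forms, with 4.41 and 3.88 kb in forelimb and 11.3 and 12.01 kb in hindlimb. By contrast chr9:91244507-91310624, at 33.6 and 32.0 kb against 42.3 and 41.4 kb, was called only as deposited, and its log2 difference moved from -0.35 to 0.20 with scaling. Size alone did not bring a call. The domain named for Dlx5, a homeobox gene of the apical ridge, held 23.2 and 21.3 kb in forelimb and 30.5 and 29.2 kb in hindlimb (limma adjusted p = 0.053), and its log2 difference turned from -0.42 to 0.13 with scaling.

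A plain rule of size gave a similar picture in the deposited lists but not with scaling. Domains in which both libraries of a limb covered more than both of the other, with means at least 4 kb apart, numbered 5 for forelimb (0.0571%) and 73 for hindlimb (0.833%) of the 8764. With scaling they numbered 52 for forelimb (0.593%) and 11 for hindlimb (0.126%), so the balance of directions turned with the scaling. The balance of the limma calls did not turn, at 9 for forelimb and 19 for hindlimb with scaling. In the deposited lists, the hindlimb count of the size rule was 112 without forelimb replicate 1, 48 without forelimb replicate 2 and 48 without hindlimb replicate 1. Domains called only with scaling and higher in forelimb were the HoxA domain above, a domain of Cdx2 and 2 unnamed ones. Cdx2, a homeobox gene of the posterior body and gut, lay in chr5:148110611-148130777 with 16.8 and 15.1 kb in forelimb and 13.5 and 12.7 kb in hindlimb (limma adjusted p = 0.131 as deposited and 0.042 scaled). One of the unnamed ones, chr13:117492823-117500478, on the chromosome of Isl1, held 2.11 and 1.99 kb in forelimb and 0.317 and 0.297 kb in hindlimb (limma adjusted p = 0.068 as deposited and 0.033 scaled). The other, chr10:22531415-22543441, held 6.97 and 7.05 kb in forelimb and 4.69 and 5.16 kb in hindlimb.

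Which domains were present differed far less among well-covered domains than among small ones. All 4 libraries held 3027 of the 8764 domains (34.5%), and these carried 87.9% of the covered bases. A single library held 4177 domains (47.7%), with a median span of 0.326 kb and 3.88% of the covered bases. Both forelimb libraries and neither hindlimb library held 51 domains, with a median span of 0.592 kb, a longest of 3.55 kb and none that reached the size for testing. Both hindlimb libraries and neither forelimb library held 556 domains, with a median of 1.10 kb and a longest of 21.4 kb, at Tbx5. Of these 556, 13 were tested and 5 were called, namely both Tbx5 domains, the one beside HoxB, and unnamed domains at chr17:39979750-39983651 with 3.88 kb in each hindlimb library and chr8:123914859-123921806 with 3.70 and 2.41 kb. The most covered forelimb-only domain lay on chromosome 5 and held 2.34 and 0.745 kb. Forelimb-only presence therefore contained no domain of the size of those at Tbx5. With 1 library left out, a limb-only domain needs fewer agreeing libraries. Forelimb-only domains then numbered 480 without forelimb replicate 1, 1506 without forelimb replicate 2, 119 without hindlimb replicate 1 and 72 without hindlimb replicate 2. Hindlimb-only domains numbered 1086, 670, 1638 and 1881 in the same order.

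Within the 3027 domains of all 4 libraries, hindlimb covered more in both libraries than either forelimb library in 2072 (68.5%), forelimb in 30 (0.991%), and the limbs overlapped in 925. With scaling the counts were 921 for forelimb and 599 for hindlimb. The stitched length differed in the same direction less often, with hindlimb longer in 1658 (54.8%) and forelimb longer in 85 (2.81%). Median covered length per domain was 1.92 and 1.44 kb in forelimb and 2.54 and 2.32 kb in hindlimb. The domains were made of longer peaks in hindlimb, not of more of them. Mean peak length was 0.900 and 0.746 kb in forelimb and 1.23 and 1.08 kb in hindlimb, while the mean number of peaks per domain was 3.23 and 3.21 against 3.06 and 3.18. Peaks filled 78.5 and 76.6% of the length in forelimb and 84.4 and 82.5% in hindlimb. Edges shifted little in the typical domain, by a median of 0.267 kb at the start side and 0.256 kb at the end side, further out in hindlimb. An edge lay at least 5 kb further out in forelimb 6 times and in hindlimb 13 times, and in forelimb these included the HoxC end, the HoxB start and both edges of Isl1. The hindlimb number was 31 without forelimb replicate 1.

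Length of a list's own domains followed the same order. The median stitched domain was 1138.5 and 1330 bp in forelimb and 1639 and 1572 bp in hindlimb, and domains over 10 kb numbered 200 and 170 in forelimb and 265 and 241 in hindlimb. Neither overlapped between limbs, each with the exact permutation p of 0.333. The longest domain of each list went the other way, at 89.5 and 88.3 kb in the forelimb lists and 71.8 and 65.4 kb in the hindlimb lists. In both forelimb lists it was the HoxC domain.

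The deficit of forelimb coverage was read by the span of the domain. The ratio of forelimb to hindlimb covered bases was 0.562 in domains of 1 to 3 kb, 0.694 at 3 to 10 kb, 0.768 at 10 to 20 kb, 0.784 at 20 to 40 kb and 0.879 in the 7 domains over 40 kb. The value of the longest class rested on HoxC, which differs in the other direction. Without it, the other 6 domains over 40 kb had a ratio of 0.723, below those at 10 to 40 kb, so the ratio did not rise further above 40 kb. Over the 4 pairings of a forelimb with a hindlimb library the ratio ranged from 0.404 to 0.748 at 1 to 3 kb, from 0.694 to 0.849 at 10 to 20 kb, and from 0.814 to 0.948 above 40 kb or 0.661 to 0.787 there without HoxC. The range at 1 to 3 kb overlapped each of the others but the one that includes HoxC. The same 4 pairings served every class, so overlap of the ranges does not compare the classes within a pair. From 1 to 3 kb upward both ends of the range rose, to 0.583 and 0.817 at 3 to 10 kb and 0.714 and 0.860 at 20 to 40 kb. Domains up to 1 kb had a ratio of 0.61 with a range of 0.274 to 1.04. The share of domains held by all 4 libraries rose with span too, from 0.669% up to 1 kb to 89.8% at 3 to 10 kb and 100% over 40 kb. A single scaling factor per library therefore did not centre all sizes, and the median scaled log2 difference was 0.05 for domains of 3 to 10 kb and 0.19 for those of 10 to 20 kb.

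**Figure D4:**
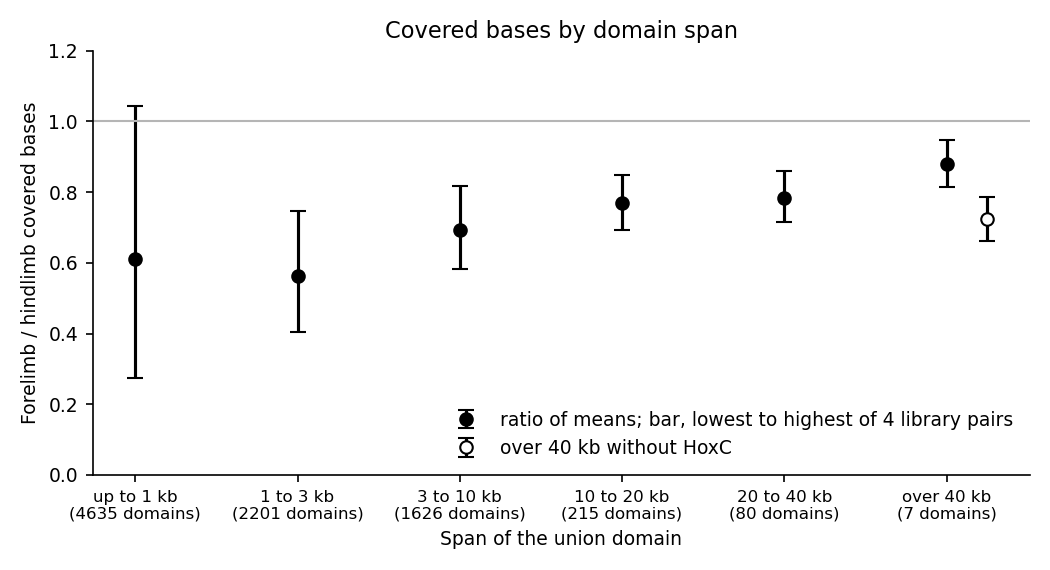
Ratio of forelimb to hindlimb covered bases by the span of the union domain. Points are ratios of the means of 2 libraries per limb, bars run from the lowest to the highest of the 4 library pairs, and the number of domains stands under each class. The ratio was 0.562 at 1 to 3 kb and 0.879 over 40 kb, where the open point shows 0.723 without HoxC, and the bar of the shortest class crosses 1.

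H3K27ac lay opposite to H3K27me3 at Tbx5, Pitx1, Tbx4 and Isl1 and at the forelimb-higher HoxC and HoxB domains, and rarely at other called domains. Of the 5 forelimb-higher domains, 5 held more H3K27ac in both hindlimb libraries than in either forelimb library, as did 2.60% of all tested domains. These forelimb-higher domains spanned 9.73 to 89.5 kb, while 1041 of the tested domains spanned 1 to 3 kb and 1503 spanned 3 to 10 kb. Called domains were not compared with others of like span. Of the 60 hindlimb-higher domains, 5 held more in both forelimb libraries, against 2.64% of all tested domains, and 1 held more in both hindlimb libraries. These 5 were both Tbx5 domains, Tbx15 and unnamed domains at chr1:63293505-63321186 and chr12:9577187-9589959, the last 2 with at most 1.26 kb of H3K27ac. This count of 5 moved with the number of calls, to 45 without forelimb replicate 1, 10 without forelimb replicate 2 and 2 without either hindlimb replicate, and the forelimb-higher count was 3 without hindlimb replicate 2. Any E10.5 H3K27ac peak was found in 30 of the 60, in 5 of the 5 and in 860 of all 2846 tested domains (30.2%). The H3K27ac lists covered 14.7 and 7.63 Mb in forelimb and 9.56 and 12.1 Mb in hindlimb, so their totals overlapped between limbs.

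**Figure D5:**
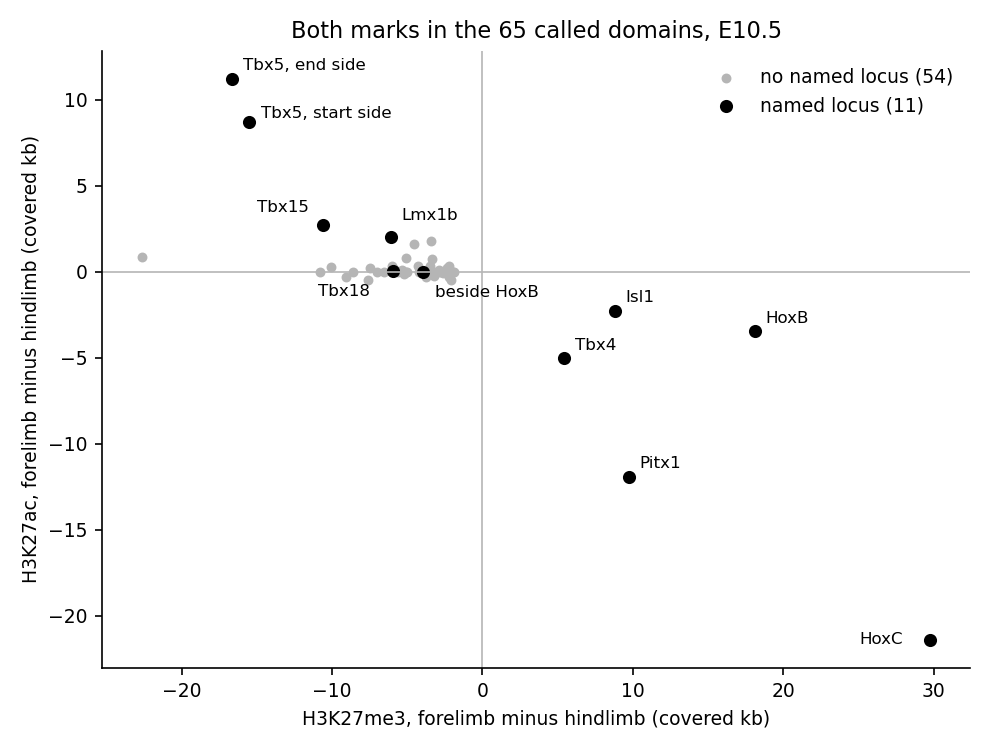
H3K27me3 and H3K27ac in the 65 called domains at E10.5. Each point is 1 domain, the horizontal axis is forelimb minus hindlimb covered kb of H3K27me3 and the vertical axis the same for H3K27ac, both from means of 2 libraries per limb, and the domains with a name are black. The 5 forelimb-higher domains lie at more hindlimb H3K27ac and both Tbx5 domains at more forelimb H3K27ac, while most hindlimb-higher domains lie near no difference in H3K27ac.

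The same split was read in 65 windows of genes grouped by role. Both forelimb libraries covered more than both hindlimb libraries in 7 windows, namely HoxA, HoxB, HoxC, Pitx1, Tbx4, Isl1 and Cdx2, against 1.02% of all tested domains. Hindlimb covered more in 40 windows, against 70.7% of all tested domains, and the limbs overlapped in 18. Without forelimb replicate 2, forelimb covered more in 15. With scaling, forelimb covered more in 35 windows and hindlimb in 11, against 30.9% and 21.7% of all tested domains. Among 20 windows of limb patterning genes, hindlimb covered more in 10 and forelimb in none, and with scaling hindlimb covered more in 6 and forelimb in 3. The largest differences among them were at Lmx1b, at Shox2, a homeobox gene of proximal limb growth, with 0 and 0.30 kb in forelimb and 4.46 and 3.06 kb in hindlimb, at Fgf8, the signal of the apical ridge, with 8.96 and 7.45 against 11.9 and 11.4 kb, and at En1, a ventral ectoderm factor, with 19.7 and 19.0 against 23.0 and 22.6 kb. Shox2 kept its direction with scaling, En1 was then higher in forelimb, and Fgf8 then overlapped. Among 7 windows of other homeobox genes, 4 were higher in hindlimb and 3 overlapped as deposited, while with scaling 5 were higher in forelimb and none in hindlimb. Dlx1, known from the forebrain, held 20.6 and 17.6 kb in forelimb and 25.04 and 23.6 kb in hindlimb, and it was higher in forelimb with scaling. Bmp7 held no H3K27me3 peak in any library. The window of Shh, the signal of the posterior margin, held 10.3 and 8.71 kb in forelimb and 11.3 in both hindlimb libraries.

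Genes of other tissues carried the mark in both limbs, and the direction of their counts turned with scaling. Over all tested domains, hindlimb covered more in 70.7% as deposited, and with scaling forelimb did in 30.9% and hindlimb in 21.7%. Longer domains leaned to forelimb with scaling whatever their genes, with a median log2 difference of 0.19 at 10 to 20 kb and 0.23 at 20 to 40 kb. Whether these windows differ from other domains of like span was not tested. All 10 neural windows were higher in hindlimb as deposited, while with scaling 7 were higher in forelimb and 1 in hindlimb. Otx2, a forebrain factor, held 14.7 and 12.7 kb in forelimb and 20.8 and 18.0 kb in hindlimb, and Pax6, an eye and neural tube factor, held 25.9 and 22.05 against 29.9 and 28.8 kb. Zic2 was the neural window that stayed higher in hindlimb with scaling, at 5.42 and 2.57 against 10.8 and 7.64 kb. Of 9 kidney and gut windows, 7 were higher in hindlimb and Cdx2 was higher in forelimb as deposited, while with scaling 7 were higher in forelimb and none in hindlimb. Foxa2, an endoderm factor, held 12.5 and 10.8 kb in forelimb and 18.3 and 15.05 kb in hindlimb. Gata4, a factor of heart and gut, held 24.2 and 24.6 kb in forelimb and 30.2 and 28.004 kb in hindlimb. Muscle (2 of 3) and blood (2 of 2) windows were likewise higher in hindlimb, and with scaling all 5 were higher in forelimb. No domain of the neural, kidney and gut, muscle or blood windows was called in the deposited lists.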

How the data were processed

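H3K27me3 peak lists of 4 E10.5 limb bud libraries were analysed, with H3K27ac lists of 6 libraries beside them. Alignment was to mm9 with Bowtie 0.12.3 and peak calling with MACS 1.37, per the submitters' processing notes. Each E10.5 library has its own list, called at a p-value of 1e-05 per the file headers. The deposited score of a peak, the authors' -10 times the log10 of its p-value, served only to rank peaks within a list. Coordinates were used as deposited. The E11.5 lists carry no score. Which input was set against which library is not known here, and input and mRNA libraries were not used.

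Peaks within 3 kb were stitched per list, and domains held with at least 1 bp of a library's peaks counted as present. Covered kb per domain was tested with limma 3.58.1 (R 4.3.3, trend) on log2(covered kb + 0.5) over domains with a mean of at least 1 kb, with Benjamini-Hochberg adjustment and a threshold of 0.05. A log2 difference on this scale understates the change of little-covered domains. Values per library used exact two-sided permutation tests. Python 3.11.15, numpy 2.4.6 and pandas 2.3.3 did the rest. The fit was tested on data simulated without an overall shift between the limbs. There, 41 of 100 domains changed 2-fold and 96 of 100 changed 4-fold were recovered. False calls numbered 5, counted among the unchanged of the 2846 domains. The deposited lists had a median log2 difference of -0.40, so these 5 do not measure false calls among the hindlimb-higher domains.

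Named domains followed a rule: per direction the 12 largest differences of mean covered kb among domains whose limbs did not overlap, the 8 largest with scaling, the 8 most covered limb-only domains, the 6 largest edge shifts per side and direction, the windows of limb identity and Hox loci, and up to 4 examples per other window group. Called domains outside this rule were named after their values were seen. The members, windows and lists were chosen with earlier results of these data known. The 65 windows were placed by hand from general knowledge of mm9. All 65 lay on the chromosome given by a GRCm38.p6 table and 62 kept its gene order, 3 being alone on their chromosome. Neither checks their bounds. Spacing to a neighbouring window was within 20 kb of that table for 48 of 62, with a median gap of 2.65 kb. The largest gap was 1899.6 kb at Pax3, and it was 416.4 kb at Twist1, 212.5 kb at Zic2 and 47.2 kb at Isl1. All windows were kept. Alternatives covered stitching, filters, pseudocounts, scaling, list length, single replicates and a replicate block.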

Additional observations from a re-analysis of the deposited data

How the results depend on the processing

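Counts of calls moved with most choices. The log2 difference ran from 1.80 to 4.62 at Pitx1 and from 1.58 to 3.63 at Isl1 over 16 settings, in each of which both were called. Forelimb-higher calls numbered 5, and 9 with scaling, and leaving out each library in turn gave 3 to 7. Hindlimb-higher calls numbered 60. They were 19 with scaling, 35 with stitching within 1 kb, 3 with the higher-scoring 50% of each list, 142 with a pseudocount of 1 kb, 125 with no filter, 112 with a filter of 2 kb, 12 with limma without a trend, and 2 to 1262 without 1 library. For the 4 kb rule, forelimb counts were 52 with scaling and 8 at a difference of 2 kb, with 5 to 6 without 1 library. Hindlimb counts were 11 with scaling, 42 with 1 kb stitching, 337 at 2 kb and 9 at 8 kb, with 48 to 112 without 1 library. Forelimb-only domains numbered 77 with 1 kb stitching, 23 with the higher-scoring 50% and 18 when 500 bp were required, with 72 to 1506 without 1 library, and hindlimb-only domains 670 to 1881 without 1 library. Edges further out in forelimb numbered 2 with 1 kb stitching, 16 with 10 kb, 2 with the higher-scoring 50%, 3 with lists of equal length, 13 at a shift of 2 kb, 3 at 10 kb and 4 to 7 without 1 library. Those further out in hindlimb numbered 2, 103, 159 and 2 with 1 kb and 10 kb stitching and shifts of 2 and 10 kb, and 13 to 31 without 1 library. Forelimb-higher domains with more hindlimb H3K27ac numbered 3 with the higher-scoring 50% and 3 to 6 without 1 library. Hindlimb-higher domains with more forelimb H3K27ac numbered 3 with 1 kb stitching, 9 with 10 kb, 2 with the higher-scoring 50%, 3 with scaling and 2 to 45 without 1 library. Windows higher in forelimb numbered 35 with scaling and 7 to 15 without 1 library, and those higher in hindlimb 11 and 40 to 47. The cause of these moves was not tested. Scaling turned the log2 difference of 1413 of the 2846 tested domains from negative to positive and of 0 the other way. These include values of 0.29 at HoxB, 0.13 at Dlx5, 0.40 on chromosome 17, 0.20 on chromosome 9, 0.016 for an unnamed domain on chromosome 11 and 0.017 for one on chromosome 4.

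Replicate numbers are shared by the limbs, and deviations of same-numbered libraries correlated at 0.032 over 2846 domains. Such a correlation cannot show a shift common to all domains. Replicate 1 covered more than replicate 2 in both limbs, at 9.93 against 7.56 Mb in forelimb and 13.5 against 12.02 Mb in hindlimb. Whether same-numbered libraries share more than a number is not known. With a replicate block, 11 domains were called higher in forelimb and 750 in hindlimb, and with the block and scaling 20 and 44. The ratio of domains over 40 kb without HoxC was added after seeing the data. Where 1 library is left out, the lone library of its limb is assumed to vary like the others. Depth is unknown, so absence of a peak is not absence of the mark.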

Other observations

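The X chromosome held less of the mark in forelimb relative to hindlimb than any autosome did. Its ratio of forelimb to hindlimb covered bases was 0.487, against 0.615 to 0.752 over the 19 autosomes. It covered 85.2 and 51.6 kb in forelimb and 158.6 and 122.1 kb in hindlimb, which is 0.858 and 0.682% of the covered bases of the forelimb libraries and 1.17 and 1.02% of those of the hindlimb libraries. These kb were spread over 200 domains. Short domains of the whole set also had low ratios, 0.61 up to 1 kb and 0.562 at 1 to 3 kb. The X was not compared with autosomal domains of like span, and the ratios are of means of 2 libraries. The sexes of the embryos were not used here, and the cause was not tested.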
